A study of Mus musculus with 28 samples.

Results

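Transcripts of the interleukin and tumour necrosis factor (TNF) families were examined by RNA sequencing in mouse liver tumours and in the liver tissue beside them. Genes were taken by symbol alone: every symbol that begins with Il and a digit, or with Tnfsf or Tnfrsf, and the symbols Tnf, Lta and Ltb. This gave 105 of the 18182 genes in the deposited table. By textbook role they were 42 ligands, 53 receptors, 8 antagonists, decoy receptors or binding proteins, and 2 genes named for induction by interleukin 4 (Il4i1 and Il4i1b) that are neither ligand nor receptor. All mice were c-Myc/Alb-cre transgenic, with Cre recombinase expressed from the albumin (Alb) promoter, which is active in hepatocytes. The libraries were 11 of tumour tissue labelled Tu_F, 11 of peritumour tissue labelled Pe_F, 3 Tu_M and 3 Pe_M. The labels give no ages and do not spell out the letters F and M, and the transgenes are shared by all 4 groups. Titles carry a code common to 1 tumour and 1 peritumour library, treated here as the animal's code, which gave 14 pairs. Nothing else marks the pairs as separate animals, so p-values measure the spread between these pairs. The codes are written in 2 styles, a number with a suffix in 6 pairs (the first style, with all M libraries) and a letter before a number in 8 pairs (the second), treated as a possible batch.

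Interleukins and TNF family ligands are the messengers by which immune, stromal and epithelial cells signal to each other, and each acts through 1 or more membrane receptors. Interleukin 1 receptors and Toll-like receptors share the adaptor Myd88, many other interleukin receptors signal through JAK kinases and STAT factors, and TNF receptors recruit TRAF adaptors or death domain proteins. In liver, Kupffer cells are a known source of interleukin 1, and hepatocytes respond to interleukins 1 and 6 by secreting acute phase proteins.

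The library totals ran from 14777567 to 17576921 estimated counts, so that 1 read was worth at most 0.0677 counts per 1000000 (CPM). Albumin, the defining hepatocyte transcript, measured 8820 to 42379 CPM over all libraries. Ddx3y, a gene of the Y chromosome, was at most 0.065 CPM in every F library and 20.5 to 49.4 CPM in the M libraries. The 8 markers of granulocyte precursors, which are blood-forming cells, summed to between 160 and 433 CPM in both tissues of F animals 2, 5 and 6, to 286 CPM in the tumour of F animal 4, and to between 5.70 and 81.0 CPM in all other libraries. Counts of genes that passed are also given without F pairs 2, 5 and 6, as are the values of some single genes.

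Before the values, the sequences around the transcription starts of a ligand and its receptor that both fell in tumour, Il1a and Il1r1, are shown, because no other listed ligand and receptor pair had both partners past the test. They are RefSeq windows on GRCm38.p6 from 250 bases before to 50 bases after a start, read 5′ to 3′ on the gene's strand. Capitals mark matches to any of 4 motifs searched on both strands: AP-1 (TGANTCA), STAT (TTCNNNGAA), the TATA box (TATAAA) and the NF-kappaB consensus. Il1a is on the minus strand of chromosome 2 (window chr2:129309923-129310222), and Il1r1 on the plus strand of chromosome 1 has windows at chr1:40224830-40225129 and chr1:40266336-40266635.
Il1a: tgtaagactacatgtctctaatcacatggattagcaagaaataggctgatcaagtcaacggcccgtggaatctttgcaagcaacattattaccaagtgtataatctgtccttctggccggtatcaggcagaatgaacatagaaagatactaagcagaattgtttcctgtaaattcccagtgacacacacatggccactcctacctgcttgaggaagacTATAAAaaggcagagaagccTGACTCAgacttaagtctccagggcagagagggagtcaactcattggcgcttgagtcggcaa
Il1r1, first window: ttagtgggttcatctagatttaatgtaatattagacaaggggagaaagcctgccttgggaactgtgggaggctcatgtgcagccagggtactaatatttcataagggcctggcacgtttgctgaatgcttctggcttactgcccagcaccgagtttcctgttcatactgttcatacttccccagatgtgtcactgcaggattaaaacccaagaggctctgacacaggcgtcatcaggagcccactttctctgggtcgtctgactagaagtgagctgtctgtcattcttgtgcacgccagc
Il1r1, second window: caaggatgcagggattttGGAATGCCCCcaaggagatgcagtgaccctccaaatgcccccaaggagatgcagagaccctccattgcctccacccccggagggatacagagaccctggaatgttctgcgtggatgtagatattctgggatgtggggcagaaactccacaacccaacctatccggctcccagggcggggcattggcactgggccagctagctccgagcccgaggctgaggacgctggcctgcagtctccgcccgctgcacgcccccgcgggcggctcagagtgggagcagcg
The Il1a window holds a TATA box at position -32 and an AP-1 match at position -12, which do not overlap. These positions are counted from the RefSeq start. The deposited 5′ end of Il1a, at 129310877, lies upstream of the whole window. The first Il1r1 window holds no match, and the second holds an NF-kappaB match at position -232. Over the 100 windows of the 83 genes of these families that were matched by symbol, 18% held AP-1, 16% STAT, 18% TATA and 12% NF-kappaB matches. Of all 32851 windows, 7.8% held AP-1, 8.3% STAT, 13.6% TATA and 8.5% NF-kappaB matches. A match describes these letters and not a bound site.

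Receptors were more abundant than ligands. Levels of different genes are compared on the deposited TPM, a unit corrected for transcript length. The median gene's mean over 28 libraries was 0.346 TPM for ligands, 1.68 TPM for receptors and 2.22 TPM for antagonists and decoys. Only 2 of 42 ligands exceeded a mean of 10 TPM, Il18 at 16.2 ± 4.77 TPM and Tnfsf12 (TWEAK) at 15.5 ± 4.23 TPM (SD, n = 28). Among receptors, 15 of 53 did. The highest was Tnfrsf12a, the TWEAK receptor Fn14, at 84.8 ± 25.9 TPM, followed by Tnfrsf1a, the main TNF receptor, at 72.9 ± 14.9 TPM (SD, n = 28). The ranges of these 2 receptors, 36.5 to 140 and 39.4 to 113 TPM, overlapped almost fully. Il18bp, the secreted binder of interleukin 18, came next at 63.9 ± 39.6 TPM (SD, n = 28), above the ligand it binds. Il6st, the shared signalling chain gp130, stood at 36.5 ± 10.6 TPM, Il10rb at 34.8 ± 9.42 TPM and Il1r1 at 25.7 ± 8.39 TPM (SD, n = 28), and these neighbours also overlapped.

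**Figure D1:**
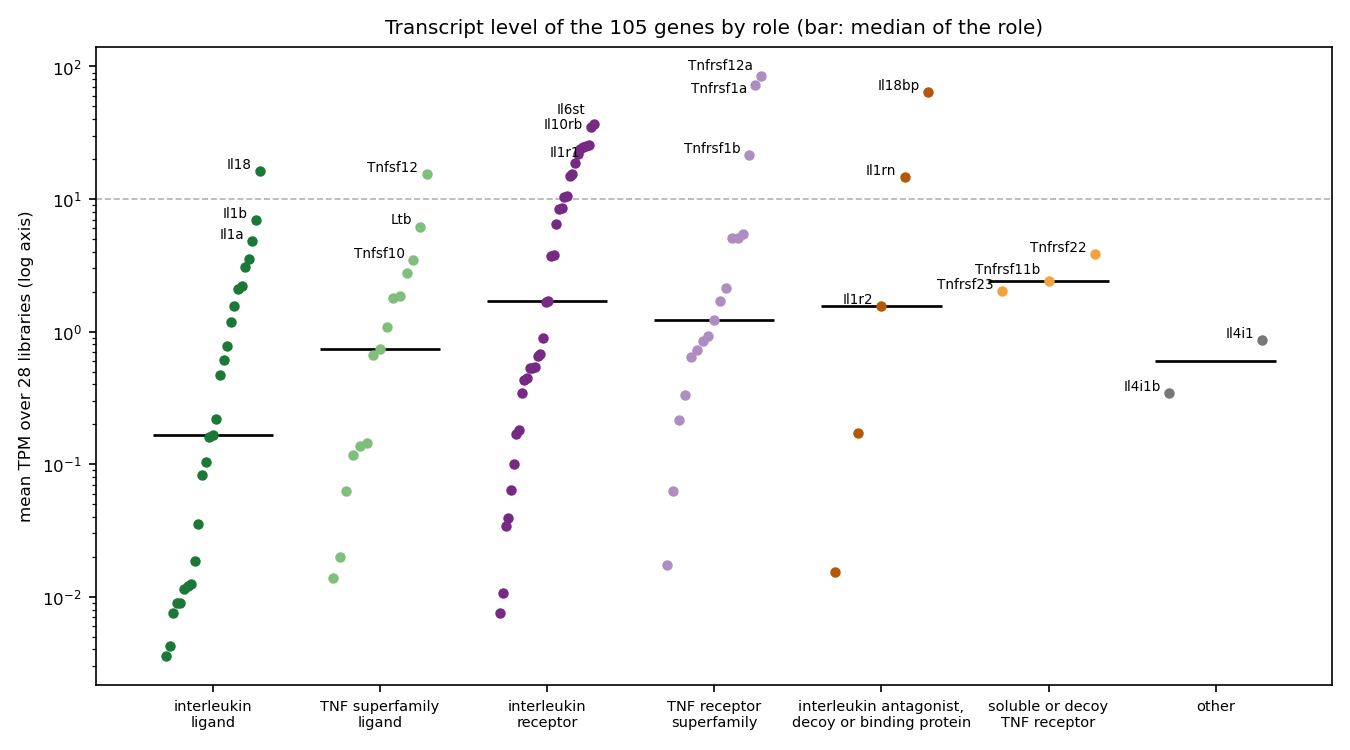
Mean deposited TPM over 28 libraries (log axis) of each of the 105 genes, grouped by role, with a bar at the median of each role and a dashed line at 10 TPM. The median is 0.165 TPM for interleukin ligands and 1.69 TPM for interleukin receptors, and 2 ligands and 15 receptors lie above the line.

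Summed over roles, ligands summed to 82.3 ± 29.7 TPM in tumour and 75.4 ± 17.2 TPM in peritumour tissue, and receptors to 508 ± 101 and 504 ± 58.4 TPM (SD, n = 14 each). Within the ligands, the TNF superfamily summed to 39.1 ± 17.3 TPM in tumour against 29.9 ± 6.65 TPM (SD over 14 libraries each), higher in 8 of 14 pairs. The sum over all ligands was higher in tumour in 9 of 14 pairs, and the sum over receptors in 6. All of these differences were smaller than the SD between tumours, which is not the spread of differences within animals. The sums were not tested.

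Of the 105 genes, 73 had enough reads to be tested, namely 22 of 42 ligands, 43 of 53 receptors, 6 of 8 antagonists and decoys, and both other genes. The 32 untested genes averaged at most 0.438 CPM in tumours and 0.357 CPM in peritumour samples. They include the classical T cell cytokines Il2, Il5, Il9, Il13, Il17f and Il21, the regulatory cytokine Il10, and Lta. Il6, the inducer of the acute phase response, had 30 counts in all over 15 libraries and at most 0.351 CPM in any library. Tnfrsf13c, the receptor of the B cell survival factor BAFF, averaged 0.226 CPM in tumours and 0.253 CPM in peritumour samples.

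Between tumour and peritumour tissue, with the animal as a block, 1 of the 73 tested genes rose and 2 fell (edgeR quasi-likelihood test, threshold 0.05 on p adjusted over all 14117 genes tested). Il1a and its signalling receptor Il1r1 fell, and Tnfrsf10b, the mouse death receptor for TRAIL, rose. That is 4.11% of the tested genes of these families, against 11.5% of all genes tested (5.59% higher and 5.91% lower). An unadjusted p under 0.05 was reached by 15 of the 73, against 28.1% of all genes. By role, 1 of 22 tested ligands fell and none rose, 1 of 43 receptors rose and 1 fell, and none of 6 antagonists and decoys passed. The median log2 fold change was 0.05 for ligands, -0.07 for receptors and -0.01 for all genes tested, and 41 of 73 genes had a negative value. The ligand median had the opposite sign without F pairs 2, 5 and 6 (-0.10, with receptors at -0.14), in F pairs alone (-0.08), in the second code style (-0.12) and with at least 10 counts in 14 libraries (-0.09), and it lay between -0.03 and 0.12 when 1 pair was left out. With DESeq2, 9 of the 73 passed (3 higher, 6 lower; 16.9% of all genes), namely those 3 with Il17d and Il10rb higher and Tnfrsf19, Tnfsf13b, Il18bp and Il6st lower. Without F pairs 2, 5 and 6, 7 passed (1 higher, 6 lower, against 14.9% of all genes), of which 1, Il1a, is shared with the 3. By role, 3 ligands fell in that fit, and 1 receptor rose and 3 fell. Those receptors are not named here.

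**Figure D2:**
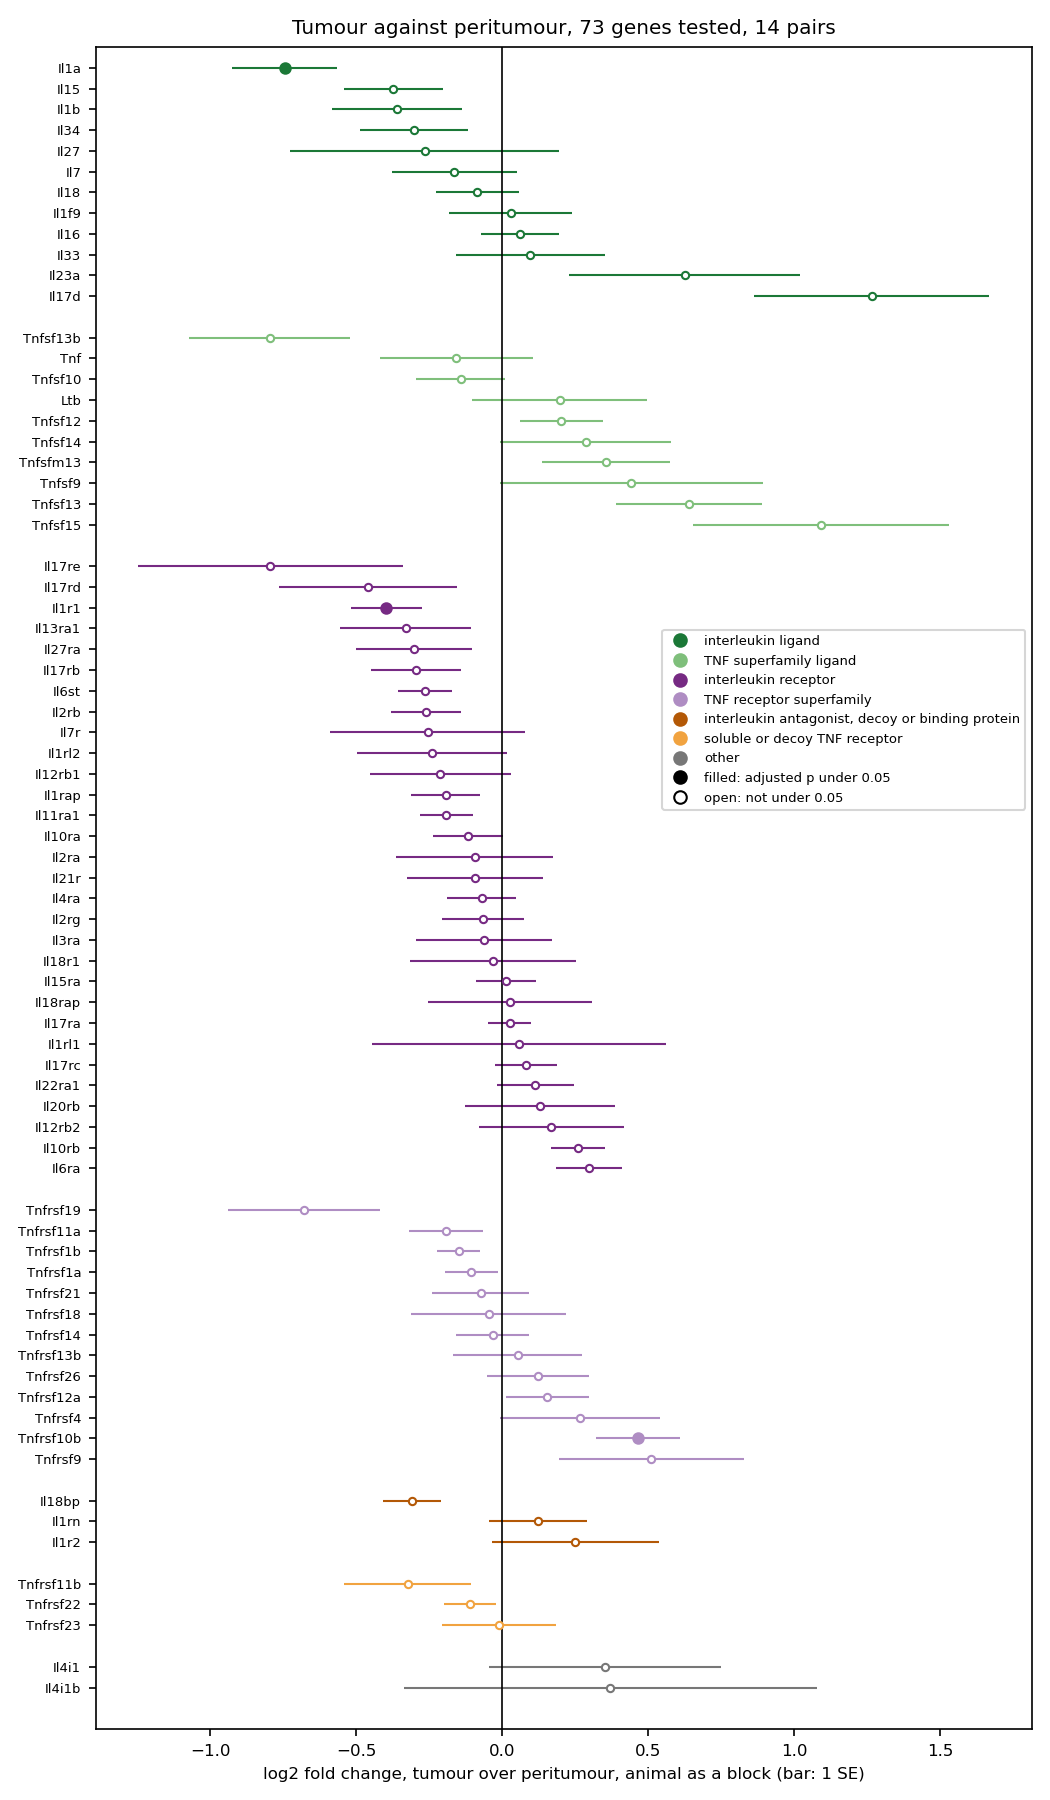
Log2 fold change of tumour over peritumour tissue (x axis, bar 1 SE) for each of the 73 tested genes, ordered within roles, from the edgeR fit with the animal as a block (14 pairs). Filled points pass an adjusted p of 0.05: Il1a at -0.75, Il1r1 at -0.40 and Tnfrsf10b at 0.47; open points at larger distance from 0, such as Il17d at 1.27, carry wider bars.

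Among the interleukin 1 family ligands, Il1a encodes an alarm cytokine released by damaged and activated cells (gene ID 16175, chromosome 2, 129299609 to 129310877 on the minus strand). In tumour it ranged from 2.18 through a median of 3.83 to 9.12 CPM, and in peritumour tissue from 4.08 through 6.63 to 10.4 CPM. The ranges overlap, but tumour was the lower tissue in 12 of 14 animals, with F animal 10 and M animal 1 the exceptions. The mean was 4.38 ± 1.85 CPM in tumours and 6.98 ± 2.08 CPM in peritumour samples (SD, n = 14 each). Its log2 fold change was -0.75 ± 0.18 (SE, adjusted p = 0.0162, edgeR). It passed in 22 of 24 alternative fits, among them all 14 that left out 1 pair, with a log2 fold change between -0.86 and -0.62 in all of them. The other 2 were the fits within 1 style of sample code (adjusted p = 0.561 over 6 pairs and 0.0521 over 8 pairs). Because these are whole tissue pieces, fewer cells of a type and less RNA per cell cannot be told apart here or below.

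Kupffer cell markers moved with Il1a. Of 8 such markers, 6 fell and none rose, and their median log2 fold change was -0.87. Their summed level ran from 117 to 708 CPM in tumour and from 200 to 592 CPM in peritumour tissue, lower in tumour in 11 of 14 animals, and no marker was at 0. Across the 14 animals, the Il1a difference followed the mean difference of these markers with Pearson's r = 0.827 (permutation p = 0.00039) and Spearman's rho = 0.807 (permutation p = 0.00079). Over the 45 correlations of 3 genes with 15 marker lists, the adjusted p was 0.0175 for r and 0.0355 for rho, and no other of the 45 passed. Without the 2 animals farthest from the median of the markers r was 0.835, and within the 2 code styles it was 0.770 and 0.892. The lists were compared after the calls were seen, and the part of these cells in the Il1a result was not tested.

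**Figure D3:**
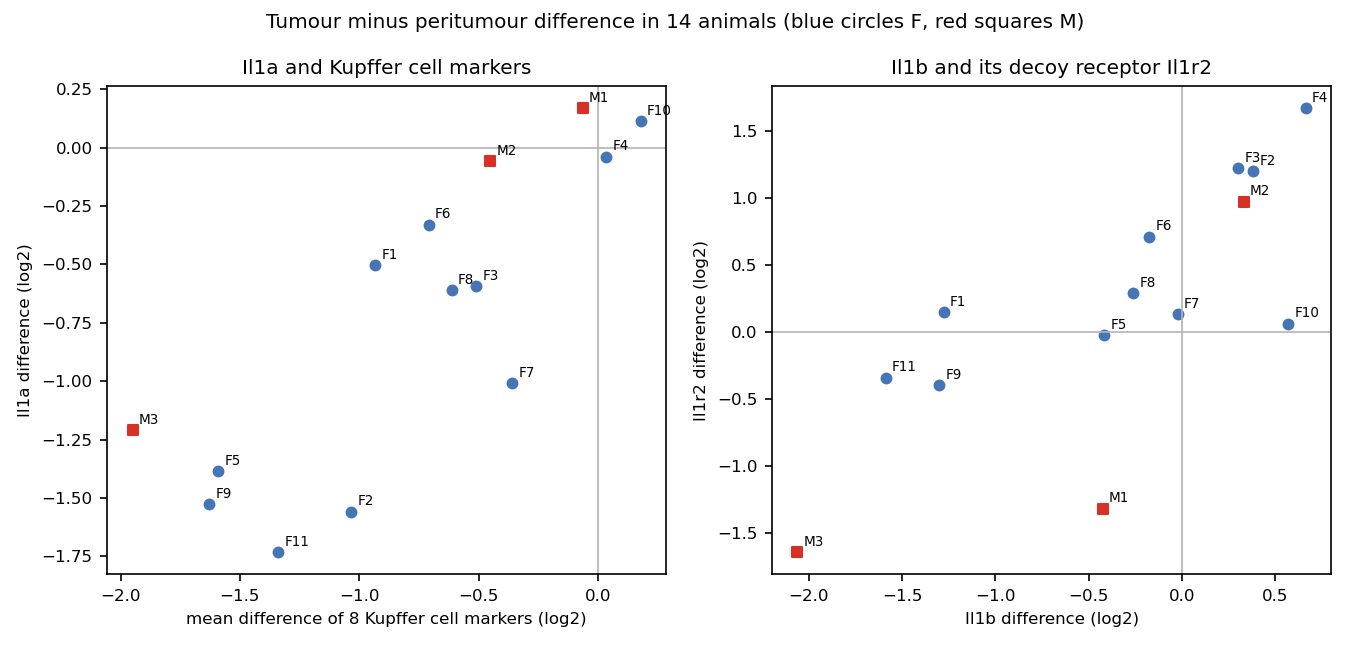
Tumour minus peritumour difference (log2 CPM) in each of 14 animals, for Il1a against the mean of 8 Kupffer cell markers on the left (r = 0.827) and for Il1r2 against Il1b on the right (r = 0.752). Blue circles are the 11 F animals and red squares the 3 M animals.

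The related cytokine Il1b, the inflammasome-dependent form, ranged from 1.22 through 4.29 to 9.44 CPM in tumour and from 2.29 through 5.41 to 11.4 CPM in peritumour tissue. Tumour was higher in 6 of 14 animals, and the log2 fold change of -0.36 ± 0.22 (SE) did not pass (adjusted p = 0.300, edgeR). Il18, the most abundant interleukin, measured 5.25, 9.39 and 10.5 CPM in tumour and 3.38, 9.51 and 19.3 CPM in peritumour tissue (lowest, median and highest), with a log2 fold change of -0.08 ± 0.14 (SE, adjusted p = 0.730, edgeR). Il33, an alarm cytokine kept in nuclei, reached 11.6 CPM in the tumour of F animal 3 and 9.27 CPM in that of F animal 5, where every peritumour library stayed at or below 4.26 CPM. Its median was 2.62 CPM in both tissues and its log2 fold change was 0.10 ± 0.26 (SE, adjusted p = 0.834, edgeR). The receptor of Il33, Il1rl1 (ST2), averaged 0.343 ± 0.529 CPM in tumours and 0.252 ± 0.273 CPM in peritumour samples (SD, n = 14 each).

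Il1r1, the receptor through which Il1a and Il1b signal (gene ID 16177, chromosome 1, 40225014 to 40316201 on the plus strand), ranged from 39.1 through 56.1 to 97.8 CPM in tumour and from 52.8 through 83.9 to 130 CPM in peritumour tissue. The ranges overlap widely, and tumour was lower in 11 of 14 animals. Means were 65.6 ± 21.4 CPM and 82.6 ± 22 CPM (SD, n = 14 each), with a log2 fold change of -0.40 ± 0.12 (SE, adjusted p = 0.046, edgeR). The fall was -0.68 ± 0.13 over the 8 pairs of the second code style, while the value was -0.02 ± 0.15 over the 6 pairs of the first (log2 fold change ± SE). The difference between the styles had an unadjusted p of 0.00414 and an adjusted p of 0.652 (edgeR). This call passed in 6 of 24 alternative fits and, among them, in 2 of the 14 that left out 1 pair (F animal 1 or M animal 1), where the adjusted p reached 0.0950. Stellate cell and sinusoidal endothelium markers moved in the same comparison: of 12 stellate markers 5 fell and 1 rose, and of 8 sinusoidal markers 2 fell and none rose. The stellate markers summed to between 224 and 1872 CPM in tumour and between 434 and 1477 CPM in peritumour tissue, the sinusoidal markers to between 105 and 289 and between 188 and 379 CPM, each lower in tumour in 11 of 14 animals and with no marker at 0. Across the 14 animals the Il1r1 difference had r = -0.103 with the stellate markers (permutation p = 0.727, adjusted over the 45 correlations 0.884) and 0.247 with the sinusoidal markers (permutation p = 0.396, adjusted 0.660), and the part of these cells in the Il1r1 result was not tested.

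The partners of Il1r1 did not pass. Il1rap, its accessory chain, measured 14.8, 46.7 and 83.5 CPM in tumour and 18.5, 50.4 and 70.2 CPM in peritumour tissue (lowest, median and highest), with a log2 fold change of -0.19 ± 0.12 (SE, adjusted p = 0.295, edgeR). The antagonist Il1rn measured 8.26, 18.7 and 51.7 CPM in tumour and 10.4, 18.6 and 36.9 CPM in peritumour tissue, and its log2 fold change was 0.12 ± 0.17 (SE, adjusted p = 0.663, edgeR). Il1r1 lies in a run of 6 receptor genes on chromosome 1 (40083308 to 40551707). In that run the log2 fold change was 0.25 for the decoy receptor Il1r2, -0.24 for Il1rl2, 0.06 for Il1rl1, -0.03 for Il18r1 and 0.03 for Il18rap, and none of these 5 passed. Il18bp, the antagonist of Il18, measured 19.6, 40.9 and 85.4 CPM in tumour and 27.7, 41.5 and 157 CPM in peritumour tissue. Both high peritumour values, 157 and 143 CPM, were those of F animals 9 and 11, tumour was lower in 11 of 14 animals, and the log2 fold change of -0.31 ± 0.10 (SE) just missed the threshold (adjusted p = 0.0509, edgeR).

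Tnfrsf10b (gene ID 21933, chromosome 14, 69767472 to 69784411 on the plus strand) encodes a receptor that can start apoptosis when bound by TRAIL. In tumour it ranged from 6.70 through 10.3 to 30.3 CPM, and in peritumour tissue from 6.65 through 7.98 to 10.3 CPM. Every peritumour library thus lay in a narrow band, and 7 tumours lay above it, those of F animals 2, 3, 5, 6, 9 and 10 and of M animal 3. Tumour was higher in 12 of 14 animals. Means were 12.7 ± 6.55 CPM and 8.18 ± 1.10 CPM (SD, n = 14 each), with a log2 fold change of 0.47 ± 0.14 (SE, adjusted p = 0.046, edgeR). Without F pairs 2, 5 and 6 the log2 fold change was 0.29 ± 0.14 (SE, adjusted p = 0.149, edgeR), and the call passed in 9 of 24 alternative fits, among them 5 of the 14 that left out 1 pair. Its ligand Tnfsf10 (TRAIL) measured 2.62, 9.21 and 16.1 CPM in tumour and 3.44, 7.86 and 34.9 CPM in peritumour tissue (lowest, median and highest), with a log2 fold change of -0.14 ± 0.15 (SE, adjusted p = 0.570, edgeR).

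**Figure D4:**
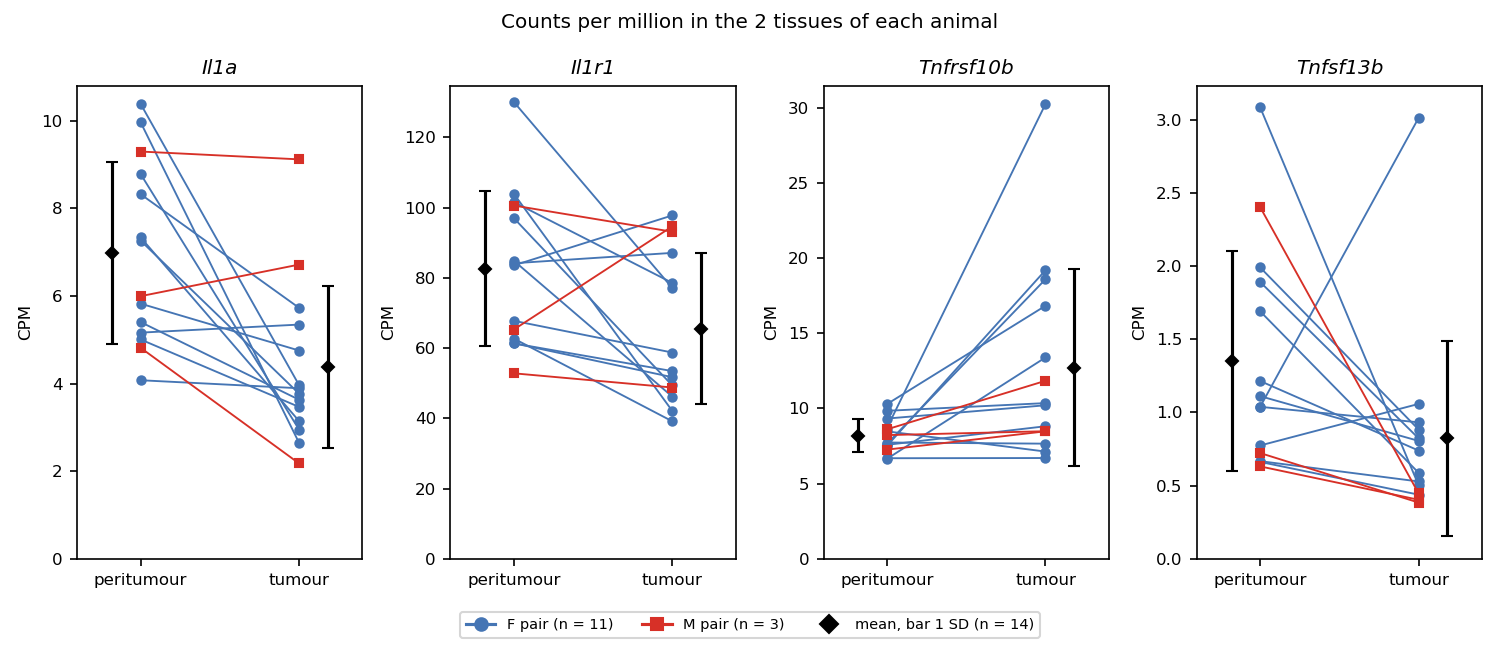
CPM of Il1a, Il1r1, Tnfrsf10b and Tnfsf13b in the peritumour and tumour library of each animal, joined by lines (blue circles F, red squares M), with the mean and SD of 14 libraries beside each tissue. Il1a falls from a mean of 6.98 to 4.38 CPM, and Tnfrsf10b spreads from a band of 6.65 to 10.3 CPM up to 30.3 CPM.

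Tnfsf13b encodes BAFF, which keeps B cells alive. It measured 0.384, 0.664 and 3.01 CPM in tumour and 0.631, 1.08 and 3.09 CPM in peritumour tissue (lowest, median and highest). Tumour was lower in 12 of 14 animals, and the 2 others were F animals 2 and 3. The log2 fold change was -0.80 ± 0.28 (SE, adjusted p = 0.0697, edgeR) over all pairs and -1.06 ± 0.27 (SE, adjusted p = 0.0218, edgeR) without F pairs 2, 5 and 6. Its second receptor, Tnfrsf13b (TACI), averaged 1.2 ± 0.851 CPM in tumours and 1.01 ± 0.499 CPM in peritumour samples (SD, n = 14 each).

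Other TNF family ligands spread widely between tumours. Ltb, the membrane part of lymphotoxin, measured 20.2 CPM in the tumour of F animal 2, 17.8 CPM in that of F animal 3 and 6.99 CPM in that of F animal 5. All peritumour libraries lay between 1.45 and 3.91 CPM, and the tumour median of 2.44 CPM was within that band. Its log2 fold change was 0.20 ± 0.30 (SE, adjusted p = 0.70, edgeR) and -0.15 without F pairs 2, 5 and 6. Tnf itself measured 0.403, 1.4 and 5.26 CPM in tumour and 0.741, 1.61 and 3.41 CPM in peritumour tissue, with a log2 fold change of -0.16 ± 0.26 (SE, adjusted p = 0.727, edgeR). Tnfsf12 measured 8.55, 18.1 and 24.0 CPM in tumour and 10.2, 14.6 and 16.4 CPM in peritumour tissue, and was higher in tumour in 10 of 14 animals (log2 fold change 0.20 ± 0.14 SE, adjusted p = 0.366, edgeR). Tnfsf12 shares its locus on chromosome 11 with Tnfsf13 and the read-through gene Tnfsfm13, which overlap, so the split of reads among these 3 is uncertain.

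None of the abundant TNF receptors passed over all 14 pairs. Tnfrsf12a measured 28.5, 41.5 and 69.9 CPM in tumour and 19.3, 40.1 and 60.7 CPM in peritumour tissue, with a log2 fold change of 0.15 ± 0.14 (SE, adjusted p = 0.501, edgeR). Tnfrsf1a had a log2 fold change of -0.11 ± 0.09 and Tnfrsf1b, the TNF receptor of leukocytes, one of -0.15 ± 0.07 (SE, adjusted p = 0.470 and 0.198, edgeR). Tnfrsf19 (TROY) measured 0.893, 4.09 and 8.36 CPM in tumour and 3.34, 7.02 and 8.96 CPM in peritumour tissue, lower in 10 of 14 animals (log2 fold change -0.68 ± 0.26 SE, adjusted p = 0.0976, edgeR). Tnfrsf9 (4-1BB), a costimulatory receptor of T cells, was higher in 10 of 14 animals, at 1.24 ± 1.24 against 0.813 ± 0.682 CPM (SD, n = 14 each, log2 fold change 0.51 ± 0.32 SE, adjusted p = 0.304, edgeR). Tnfrsf21 (death receptor 6) measured 11.6 ± 7.47 against 10.7 ± 3.17 CPM, and Tnfrsf11b, the soluble receptor osteoprotegerin, 3.87 ± 2.04 against 4.39 ± 1.45 CPM (SD, n = 14 each), neither passing. The neighbours Tnfrsf22, Tnfrsf23 and Tnfrsf26 on chromosome 7 are close relatives, 2 of which overlap, so their counts are uncertain.

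The receptor chains of interleukin 6 had fold changes of opposite sign, and neither passed over all pairs. Il6st measured 58.0, 117 and 156 CPM in tumour and 85.8, 122 and 188 CPM in peritumour tissue, with a log2 fold change of -0.26 ± 0.09 (SE, adjusted p = 0.0716, edgeR). Il6ra, the ligand-binding chain, measured 8.82, 22.8 and 45.0 CPM in tumour and 9.53, 18.5 and 37.3 CPM in peritumour tissue, with a log2 fold change of 0.30 ± 0.11 (SE, adjusted p = 0.0944, edgeR). Il10rb was higher in tumour in 11 of 14 animals, at 42.3 ± 11.7 against 33.7 ± 5.20 CPM (SD, n = 14 each, log2 fold change 0.26 ± 0.09 SE, adjusted p = 0.0760, edgeR). Il15, a survival factor of natural killer cells, measured 2.13 ± 0.672 against 2.72 ± 0.838 CPM (SD, n = 14 each, log2 fold change -0.37 ± 0.17 SE, adjusted p = 0.163, edgeR). Il34, a ligand of the macrophage receptor Csf1r, was lower in 12 of 14 animals, and its one high value, 6.41 CPM, was the tumour of F animal 2. Over all pairs its log2 fold change was -0.30 ± 0.19 (SE, adjusted p = 0.300, edgeR), and without F pairs 2, 5 and 6 it was -0.48 ± 0.15 (SE, adjusted p = 0.0479, edgeR).

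At low levels, 3 ligands outside the rule for named genes were singled out after their values were seen. Il17d was higher in tumour in 12 of 14 animals, at 0.621 ± 0.584 against 0.218 ± 0.162 CPM (SD, n = 14 each), with a log2 fold change of 1.27 ± 0.40 (SE, adjusted p = 0.0503, edgeR). Tnfsf15 (TL1A) was higher in 13 of 14 animals, at 0.670 ± 0.582 against 0.370 ± 0.556 CPM (SD, n = 14 each, log2 fold change 1.09 ± 0.44 SE, adjusted p = 0.114, edgeR). Il23a, the p19 chain of interleukin 23, reached 12.3 CPM in the tumour of F animal 2 and at most 1.06 CPM in every other library.

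**Figure D5:**
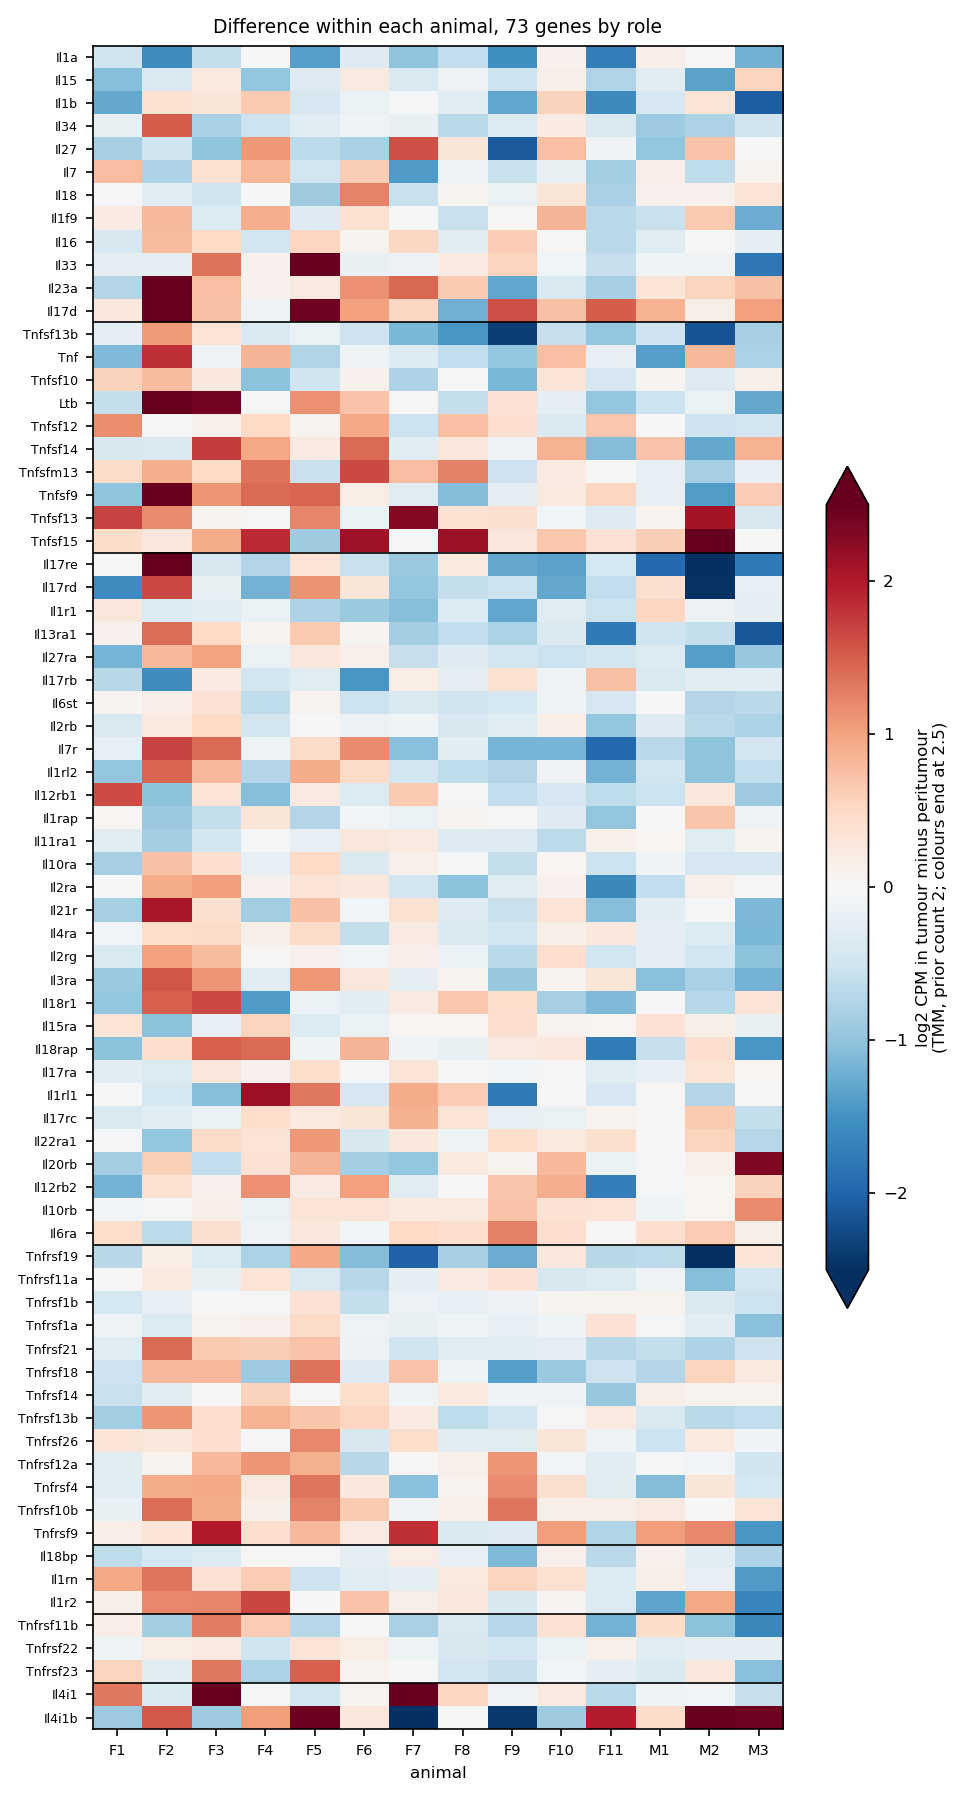
Difference of log2 CPM between the tumour and peritumour library of each animal (columns) for the 73 tested genes (rows, by role and then by fold change; colours end at 2.5). F animal 2 holds the highest median over ligands, 0.79, and F animal 5 the highest over receptors, 0.44.

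Spread between animals was larger than the mean differences. Within each animal, the median difference over the 22 tested ligands ran from -0.62 in F animal 11 to 0.79 in F animal 2, and over the 43 receptors from -0.45 in M animal 3 to 0.44 in F animal 5 (log2). The ligand median was below 0 in 9 animals and the receptor median in 10. Between tumours the median SD of log2 CPM was 0.752 for ligands and 0.636 for receptors, and between peritumour samples 0.523 and 0.456. The SD was larger between tumours in 56 of 73 genes (76.7%), against 86.3% of all genes tested. The tumour of F animal 2 was the highest of all 28 libraries in 23 of the 73 genes (31.5%, against 30.3% of all genes). The peritumour library of F animal 9 was highest in 12 (16.4%, against 3.6% of all genes), among them Il18bp, Tnfsf10, Tnfsf13b, Il2rb and Il2rg. The tumour of M animal 3 was the lowest in 26 (35.6%, against 9.8% of all genes).

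Ligand and receptor were also compared as partners. Of 49 cognate pairs listed, 20 had both genes tested, and the tumour minus peritumour difference of each partner was correlated over the 14 animals. The correlation was positive in 10 of 20 pairs, with a median r of 0.021. Il1b and its decoy receptor Il1r2 passed, with Pearson's r = 0.752 (permutation p = 0.00188, adjusted over 20 pairs 0.0376) and Spearman's rho = 0.780 (permutation p = 0.00156, adjusted 0.0312). Il1r2 was low, with a median of 0.747 CPM over the 28 libraries and a highest value of 6.00 CPM. Without the 2 animals farthest from the median of Il1b r was 0.617, and within the 2 code styles it was 0.792 and 0.718. No pair passed without F pairs 2, 5 and 6 (r = 0.732 for Il1b and Il1r2), in F pairs alone (0.739) or with a prior count of 0.5 (0.744). The next 3 pairs by p did not pass: Tnfsf13b and Tnfrsf13b (r = 0.632, adjusted permutation p = 0.142), Tnfsf14 and Tnfrsf14 (r = 0.596, adjusted 0.151) and Il1a and Il1r1 (r = 0.552, adjusted 0.203).

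Genes downstream of these receptors were counted from lists of known pathway members, to be read against the 11.5% of all genes that passed. The acute phase list lay above that share, the JAK and STAT list close to it, and the TNF, interleukin 1 and outside-relative lists below it. Of 16 acute phase genes that interleukin 6 and NF-kappaB induce in hepatocytes, 6 fell and none rose, with a median log2 fold change of -0.34. Saa1, a serum amyloid A protein, fell by 1.04 on the log2 scale (SE 0.19, adjusted p = 0.00331, edgeR), lower in 13 of 14 animals, and Apcs, serum amyloid P, fell by 0.91 (SE 0.16, adjusted p = 0.00347, edgeR). Saa2, which is nearly identical to Saa1, fell by 1.04 (SE 0.19), so the split between these 2 is uncertain. Hepatocyte markers also moved, with 4 of 10 lower, summed levels of 27326 to 65969 CPM in tumour and lower in 12 of 14 animals, and their part in these falls was not tested. Of 30 genes of TNF receptor and NF-kappaB signalling, 3 fell, among them Ikbkg, the NF-kappaB kinase regulator NEMO (-0.40 ± 0.07), and Cflar, the caspase 8 inhibitor c-FLIP (-0.35 ± 0.08, log2 fold change ± SE). Of 19 genes of JAK and STAT signalling, 2 fell and none rose, among them the kinase Jak1, which serves many interleukin receptors (-0.26 ± 0.07). Of 19 interleukin 1 and Toll signalling genes only Tab1, a partner of the kinase TAK1, changed (0.42 ± 0.10). Of 30 relatives that the symbol rule leaves out, such as Fas, Cd40 and Osm, 25 were tested and Lifr, the receptor of leukaemia inhibitory factor, fell (-0.45 ± 0.12).

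M and F animals were compared within each tissue in a fit of 4 groups with code style as a covariate. In tumour none of the 73 genes passed by edgeR (0.0283% of all genes did) or by DESeq2 (0.482%). An unadjusted p under 0.05 (edgeR) was reached by 14 (19.2%, against 9.84% of all genes), and the median log2 fold change of M over F was -0.44 against 0.0045 for all genes. Ltb had the smallest p. It measured 1.81, 2.68 and 0.576 CPM in the Tu_M libraries and 1.19, 2.59 and 20.2 CPM (lowest, median and highest) in Tu_F, with a log2 fold change of -2.20 ± 0.64 (SE, adjusted p = 0.367, edgeR). Only 3 F pairs share the first code style of the M libraries. They include F animals 2 and 3, whose tumours hold the 2 highest Ltb values, 20.2 and 17.8 CPM. Tnfrsf4 (OX40) followed at 0.202, 0.510 and 0.064 CPM against 0.341, 0.470 and 2.25 CPM, then Tnfsf9 (4-1BB ligand) at 0.202, 0.064 and 0.064 CPM against 0.132, 0.294 and 3.98 CPM. All 3 ranges overlap. Without M replicate 3 the number of genes at an unadjusted p under 0.05 was 5 of 74 (6.76%, against 5.15% of all genes). The median log2 fold change was then -0.29, against -0.005 for all genes. Within the first code style alone, 21 of 68 genes had an unadjusted p under 0.05 and 0 passed (edgeR). That is 30.9%, against 1893 of all 13663 genes tested there.

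In peritumour tissue no gene of these families passed by edgeR either (0.0283% of all genes did) or by DESeq2 (0.0425%), and 2 had an unadjusted p under 0.05 (edgeR; 2.74%, against 1.52% of all genes). The smallest p was that of Tnfsf15, at 0, 0 and 0.120 CPM in Pe_M and from 0 through 0.351 to 2.14 CPM in Pe_F, where 0.0677 CPM or less is 1 read. Il18r1 measured 0.884, 0.696 and 0.120 CPM in Pe_M and 0.304, 0.820 and 1.56 CPM in Pe_F. Tnfrsf4 came next, at 0.568, 0.380 and 0.120 CPM in Pe_M and 0.237, 0.505 and 0.937 CPM in Pe_F, where the ranges overlap. The tumour effect itself was compared between M and F animals: 0 genes passed (0% of all genes; edgeR and DESeq2), with 6 of the 73 at an unadjusted p under 0.05 (edgeR; 8.22%, against 7.09% of all genes) and 9 by DESeq2 (8.5% of all genes). These fits of the tumour effect had no term for code style. All M pairs have the first style, so differences between M and F can include those between styles. Il17re, a receptor chain for Il17c, had the smallest p. It measured 0.202, 0.064 and 0.128 CPM in Tu_M against 1.14, 1.65 and 0.662 CPM in Pe_M, lower in all 3 animals, and the difference of the log2 fold changes (M minus F) was -2.77 ± 1.00 (SE, adjusted p = 0.688, edgeR). Il4ra differed by -0.64 ± 0.25 and Il3ra by -1.27 ± 0.49 (log2, SE), both at the same adjusted p. Between the code styles, the tumour effect differed in 0 of the 73 genes (edgeR, 0% of all genes; DESeq2 also 0 of the 73, 0.0142% of all genes), and 2, Il1r1 and Tnfsf10, had an unadjusted p under 0.05 (2.74%, against 7.58% of all genes). Il17rc came next, at a difference of -0.37 ± 0.20 (first minus second style, log2, SE, adjusted p = 0.715, edgeR).

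In the authors' deposited table, which has a q-value for 101 of the 105 genes, 49 of them (48.5%) had a q under 0.05 for tumour against peritumour, 31 higher and 18 lower. Of all genes in the authors' deposited table the share was 66%. The header of these q-values names DEGseq and no pairing, so these shares and those of the paired edgeR fit come from different tests. Of the 49, 43 were among the 73 tested here, 3 of these passed in the paired edgeR fit and 40 had the same sign in it. For Il1a the authors' deposited table gives a log2 fold change of -0.68, for Il1r1 -0.34 and for Tnfrsf10b 0.63.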

How the data were processed

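Tissue from 14 tumours and 14 peritumour samples was sequenced. Per the submitters' processing notes the tools were RSEM 1.2.12, DESeq2 1.4.5, HISAT2 2.0.4 and Bowtie2 2.2.5, with no roles stated. The authors deposited estimated counts per gene with 2 decimals, per the file headers (8.06% not whole), which were rounded for testing. TPM values were also deposited by the authors and were used as given for levels between genes. A table of the authors' own log2 fold changes, p-values and q-values was deposited and is quoted by name. The 28 deposited FPKM columns and 9 columns of a group without samples among the labels were not used. Coordinates are the deposited ones. A line with no gene ID (1) was dropped, and 26 symbols turned into dates were restored by gene ID. The sources used here do not say if counting used strand, and antisense reads cannot be told apart.

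CPM was computed per library total. Counts of animals in which a gene or a marker sum was higher or lower in tumour used this CPM, without TMM factors. Fold changes and log2 differences within animals used TMM factors, so such counts can differ between the 2 scales. Tests used edgeR 4.0.16 (R 4.3.3) with TMM factors (0.809 to 1.36), filterByExpr at 10 counts (14117 genes kept), a robust quasi-likelihood fit with the animal as a block and p adjusted by Benjamini-Hochberg across every gene tested. The pairing comes from the sample codes. Within every pair deviations from group means showed a correlation of 0.135 to 0.610 across genes, against a median of -0.0171 for libraries of different animals. By this measure, 10 of 14 tumours had the peritumour sample of the same code as their closest peritumour match. The rest did not, so these correlations do not settle every pair. Alternatives used DESeq2 1.42.0, library size scaling, other filters, subsets of animals, and each pair left out. Scripts were tested on simulated data. Correlations over animals used log2 CPM with a prior count of 2 and 100000 permutations, two-sided.

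Families, lists and roles were chosen with earlier results of these data known. Named genes were those past the threshold, the 3 most abundant of each role, and a fixed list of interleukin 1, 6, 10, 15, 18, 33 and 34 and TNF family genes. For M against F and the differences between effects, the 3 with the smallest p were named, and of pathway lists up to 3 in each direction. Some pathway results are not reported here. Code style (6 pairs of the first, 8 of the second) was treated as a possible batch, and all M libraries have the first.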

Additional observations from a re-analysis of the deposited data

How the results depend on the processing

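In tumour against peritumour tissue 3 genes of the families passed in the paired fit. The number was 9 with DESeq2, 7 without F pairs 2, 5 and 6, 5 without F pairs 2, 4, 5 and 6 (an alternative added after seeing the data), 0 in the first code style alone, and 1 to 6 when 1 pair was left out. Ligands passing (1 in the paired fit) were 2 with library size scaling, 3 with DESeq2, 3 without F pairs 2, 5 and 6, 2 without F pairs 2, 4, 5 and 6, 0 in the first code style, and 1 to 3 when 1 pair was left out. Receptors passing (2 in the paired fit) were 5 with DESeq2, 1 without a filter on low counts, 1 in F pairs alone, 4 without F pairs 2, 5 and 6, 0 in the first code style, and 0 to 3 when 1 pair was left out. Median log2 fold changes moved by less than their spread between animals in every alternative run (ligands -0.03 to 0.12 and receptors -0.15 to -0.02 when 1 pair was left out). That spread (SD 0.343 for ligands and 0.289 for receptors) is larger than the medians themselves, so it does not show that they are stable. The ligand median changed sign in some fits. Without the replicate block, 1 gene (Il1a) and 0 receptors passed, and 148 genes of the whole table instead of 1624. The split over all genes was 789 higher and 835 lower, and 1151 higher and 677 lower with library size scaling. Among the cognate pairs 1 passed, and 0 with a prior count of 0.5, without F pairs 2, 5 and 6, or in F pairs alone. M against F and the difference of tumour effects had 0 in every fit, also with each M replicate left out. The cause of these changes was not tested. Of the values of single named genes in tumour against peritumour, 455 of 504 with 1 pair left out and 284 of 354 in other alternatives kept their direction and side of the threshold. Depth limits what can be said of the 32 untested genes, which average at most 0.357 CPM over all libraries, and with 3 M animals only large differences between M and F could pass.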

Other observations

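Among the untested genes, some had most of their reads in 1 library. Tnfsf8 (CD30 ligand), a T cell ligand, had 68 counts in all, of which 34 were in the tumour of F animal 2, at 2.18 CPM. Il5ra, the receptor of the eosinophil growth factor interleukin 5, had 31 counts, of which 19 were in that library. Il31ra was higher in tumour in 12 of 14 animals, at 0.200 against 0.138 CPM, and Il13ra2, a decoy for interleukin 13, averaged 0.126 against 0.252 CPM. Il13, Il17c and Il9 had 1 count each over the 28 libraries, all 3 in tumours. None of these genes was tested.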
